A study of Mus musculus with 6 samples.

Results

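The 52 genes described here are cell cycle genes of the mouse, taken by name from the 26852 genes of the deposited table and grouped by the step of the cycle in which they act. They are 8 genes of G1 and S phase entry, 15 genes of DNA replication, 21 genes of mitosis, and 8 genes of E2F factors, pocket proteins and Cdk inhibitors. All 52 were found in the table and all 52 passed the minimum level for testing, a mean normalized count of 10.

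The RNA came from dissected midbrains of C57Bl/6 embryos at E14.5 and was sequenced as 3 libraries of Lmx1b conditional knock-out embryos (Lmx1b fl/fl;Pitx3-Cre, called Lmx1b cKO) and 3 libraries of control embryos (Lmx1b wt/wt;Pitx3-Cre). Both groups carry the Pitx3-Cre allele, which replaces a copy of Pitx3, so controls are not wild-type for Pitx3. Each library pooled 2 embryos from a set of 4 litters. Cre is driven by Pitx3, a gene of midbrain dopaminergic (mdDA) neurons, which are post-mitotic and a small part of the dissected tissue. The values come from whole tissue, in which fewer cycling cells and less RNA per cycling cell cannot be told apart.

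A dividing cell passes from G1, where D-type cyclins with Cdk4 and Cdk6 phosphorylate the pocket proteins, into S phase, where freed E2F factors have switched on the genes that license and copy DNA, and then through G2 into mitosis, where Cdk1 with the A- and B-type cyclins drives the assembly of the spindle. Cdk inhibitors of the Cip/Kip family hold cells in G1 and are made as cells leave the cycle. In the embryonic midbrain, divisions take place in progenitors near the ventricle, and the neurons that leave this zone switch off replication and mitosis genes.

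Replication and mitosis genes are also known to carry different promoter elements. E2F sites are typical of replication genes, and the cell cycle homology region (CHR), often next to CCAAT boxes, is typical of mitosis genes. RefSeq promoter windows of 300 bases, from 250 bases before to 50 bases after a gene's start (build GRCm38.p6), were found for 42 of the 52 genes. The CHR was searched as TTTGAA and in its other form as TTCGAA. The E2F core was searched in the form TTCCCGC, then in the form TTCGCGC, then in the form TTGCCGC and lastly in the form TTGGCGC. These and the CCAAT box were searched on both strands, with overlapping matches kept. The stretches below show the element typical of each phase and end at the RefSeq start of the gene, or at the edge of the GENCODE gene where that lies upstream of it. They hold no annotated exon of that gene. Capitals mark the CHR in the 4 mitosis genes Cdk1, Cdc20, Kif11 and Top2a, and the E2F core in the replication genes Mcm6 and Rrm1.
Cdk1, chr10:69352939-69353032, minus strand: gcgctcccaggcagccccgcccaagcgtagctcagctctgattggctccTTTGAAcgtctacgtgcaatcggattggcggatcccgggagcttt
Cdc20, chr4:118437353-118437463, minus strand: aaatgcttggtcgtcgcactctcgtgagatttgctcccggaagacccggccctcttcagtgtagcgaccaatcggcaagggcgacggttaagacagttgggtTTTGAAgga
Kif11, chr19:37376262-37376381, plus strand: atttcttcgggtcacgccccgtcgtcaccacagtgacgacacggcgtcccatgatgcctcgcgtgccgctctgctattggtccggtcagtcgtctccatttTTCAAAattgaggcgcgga
Top2a, chr11:99024190-99024309, minus strand: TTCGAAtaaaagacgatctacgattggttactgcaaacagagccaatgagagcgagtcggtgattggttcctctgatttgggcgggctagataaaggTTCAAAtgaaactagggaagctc
Mcm6, chr1:128359706-128359825, minus strand: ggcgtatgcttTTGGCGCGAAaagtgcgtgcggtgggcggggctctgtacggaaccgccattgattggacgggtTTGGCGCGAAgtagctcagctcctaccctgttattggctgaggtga
Rrm1, chr7:102441575-102441694, plus strand: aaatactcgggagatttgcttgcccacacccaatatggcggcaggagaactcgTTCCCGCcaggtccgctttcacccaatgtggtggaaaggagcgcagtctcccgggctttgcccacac

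Counting back from the base before the RefSeq start as position -1, the CHR of Cdc20 begins at -18 and that of Kif11 at -19, the latter read on the opposite strand. The printed stretch of Top2a has a CHR at -120 and another at -23, and its window holds 2 more upstream of it. The printed CHR of Cdk1 is at -71, and another lies closer to the RefSeq start, in the bases left out because they are inside the GENCODE gene. Each of the 2 capital runs of Mcm6 holds a pair of overlapping E2F cores on opposite strands, which begin at -109 and -106 and at -46 and -43. A CHR lay in the window of 13 of 18 mitosis genes (72.2%) and of 3 of 13 replication genes (23.1%), compared to 21.7% of all 27025 genes with a window, so the share of the replication genes was near that of all genes. An E2F core lay in the window of 8 of 13 replication genes (61.5%) and of 3 of 18 mitosis genes (16.7%), compared to 10.9% of all genes. The CCAAT box was frequent in both phases, in 15 of 18 mitosis genes and 10 of 13 replication genes, and was found for 41.1% of all genes. Of the 5 G1 and S entry genes with a window, 0 had a CHR and 1 had an E2F core, that of Cdk2. These matches describe letters in a window and do not show that a factor binds there.

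The table gives the mean normalized count of each group, in which the reads of each library were divided by its size factor, and whole read counts of the single libraries were worked back from these means for 26372 genes. The genotype of such a library is known but not which sample it was, and the letters a, b and c name the 3 replicates of a group. A library had 20782935 to 25240920 reads on these genes, and a cell cycle gene had between 62 and 7814 reads in a library. Lmx1b itself read 1257, 1401 and 1455 normalized counts in the cKO and 1368, 1352 and 1474 in the controls, which overlap. The count of Lmx1b alone does not check the labels. It covers the whole gene, and the paper shows by in situ hybridization that Lmx1b is kept outside the Pitx3 domain. By qPCR on dissected E14.5 midbrains, the paper reports Lmx1b as strongly reduced by the same deletion in embryos that also lack Pitx3. Why the groups overlap here was not tested. Of the 10 mdDA markers, 4 were lower in all cKO libraries than in all controls, namely Ddc, Pitx3, Nr4a2 and En1. Pitx3 had 111, 162 and 150 in the cKO and 177, 180 and 198 in the controls, while the paper describes its mRNA level as unaltered. Only 1 was higher, Aldh1a1, with 981, 672 and 816 in the cKO and 337, 554 and 439 in the controls. Of all genes tested, 7.65% did not overlap in either direction. The paper drew En1 and Aldh1a1 from these same libraries, so they are no independent check of the labels. The labelled tissue was checked against marker lists: the 8 recovered neural progenitor markers summed to between 18841 and 23449 normalized counts per library, and the 10 mdDA markers to between 10762 and 12763. The 12 bone and mesenchyme markers stood out in cKO replicate c, with a sum of 15221, and to a lesser degree in cKO replicate a, with 3256, compared to 1359 to 1639 in the other 4 libraries. Of these markers, 11 were tested, all 11 had a positive log2 fold change, and 3 did not overlap between the groups. The 4 Y-linked markers, Ddx3y, Uty, Kdm5d and Eif2s3y, summed to 2476 in control replicate a and to 7631 and 8585 in the other controls, compared to 3597 to 4938 in the cKO libraries.

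Expression of the cell cycle genes did not separate Lmx1b cKO from control midbrains. In the limma fit across 16697 genes, 0 of the 52 cell cycle genes had an unadjusted p-value under 0.05, compared to 2.80% of all genes tested, and 0 genes of any kind had an adjusted p-value under 0.05 (467 genes had an unadjusted one). The smallest p-value among the 52 was 0.200, for Rb1, and all 52 adjusted p-values came to 1.00. Over all 52, control replicate a was the highest library for 39 genes, compared to 18.7% of all genes, and the lowest was control replicate b for 26 and cKO replicate a for 19, compared to 35.6% of all genes in which either of these was lowest. The log2 fold changes of the 52 genes, given throughout as cKO over control, lay between -0.28 and 0.17 with a median of -0.046, compared to a median of -5.2e-05 over all genes tested. The fitted log2 fold change was negative for 36 of 52 genes, compared to 8355 of all 16697 genes. Groups that did not overlap were found for 1 of the 52 genes, Ccne1, compared to 7.65% of all genes.

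Missing the threshold does not show that the groups were alike, and the 95% intervals of the fit give what these libraries can tell. All 52 intervals held 0. For 41 of the 52 genes, the interval lay within a change of 1.5-fold in either direction. Over all 52 genes, the lowest limit was 0.559-fold, for Gins2, and the highest was 1.56-fold, for Bub1b.

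**Figure D1:**
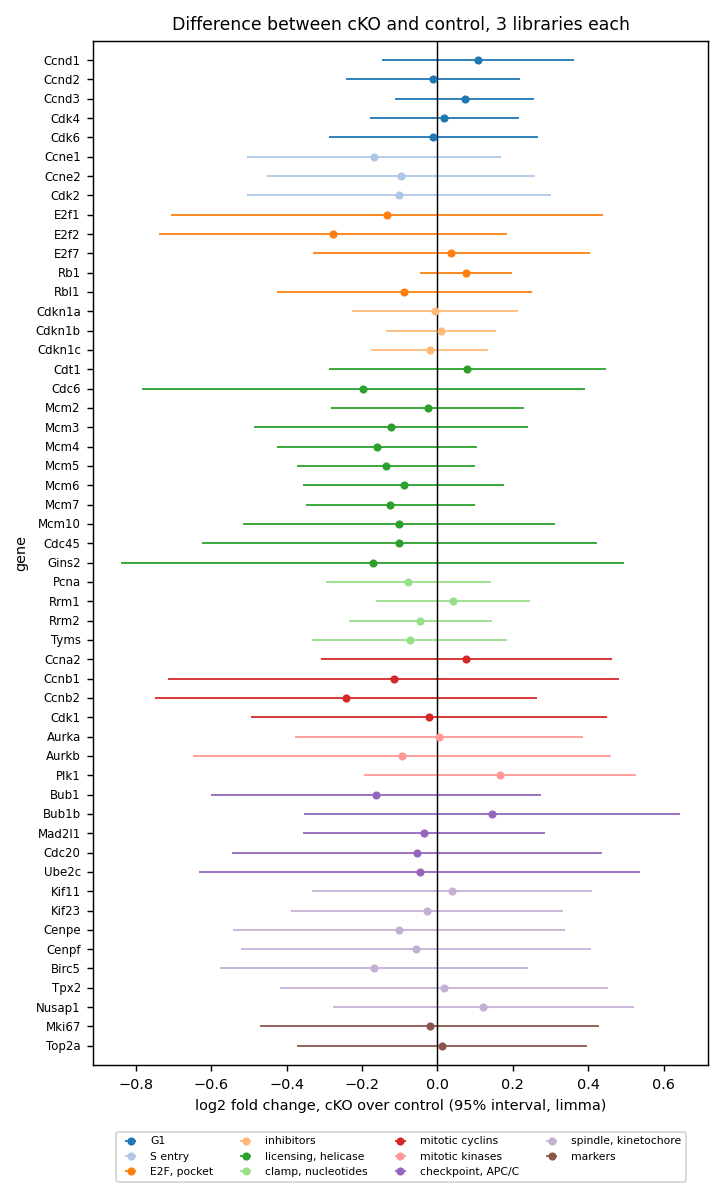
Log2 fold change of each of the 52 cell cycle genes, Lmx1b cKO over control, on the horizontal axis, with a row per gene, points for the limma estimate and bars for its 95% interval (3 libraries per group), coloured by role. All 52 bars cross 0, and the median SE is 0.20 for the mitosis genes and 0.12 for the replication genes.

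Levels per length differed widely among the 52 genes. In normalized counts per kb of exon, averaged over the 6 libraries, the Cdk inhibitor Cdkn1c (2441) and the G1 kinase Cdk4 (1949) had the highest levels, followed by Rb1 (556), Cdkn1b (536) and Ccnd2 (498). The replication initiators Cdc6 (15.04) and Mcm10 (15.6) had the lowest. Among the mitosis genes, the range was narrower, from 29.5 for Kif23, a kinesin of the midbody, to 178 for Top2a.

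The 5 G1 genes had group means close to each other, and 0 of 5 passed the test. Ccnd1 (ENSMUSG00000070348, chr7:144929931-144939925), the cyclin that answers to growth signals, had 1257, 1636 and 1496 normalized counts in the cKO, in the order of replicates a, b and c used throughout, and 1476, 1130 and 1458 in the controls. The groups overlap, since cKO replicate a lies below control replicates a and c, and the log2 fold change was 0.11 ± 0.12 (SE, 3 libraries per group), with a 95% interval from 0.904-fold to 1.28-fold. Cdk4 (ENSMUSG00000006728, chr10:127063534-127067920), the partner of the D-type cyclins, had 5604, 7176 and 6383 in the cKO and 6914, 5581 and 6337 in the controls. Its log2 fold change was 0.018 ± 0.090 (SE), with a 95% interval from 0.883-fold to 1.16-fold. The other 3 G1 genes, Ccnd2, Ccnd3 and Cdk6, had log2 fold changes from -0.012 (Ccnd2) to 0.072 (Ccnd3).

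Of the genes of S phase entry, Ccne1 (ENSMUSG00000002068, chr7:38097984-38107534), the cyclin that activates Cdk2 at the start of S phase, had 143, 157 and 146 normalized counts in the cKO and 160, 175 and 167 in the controls. All 3 cKO libraries lay below all 3 controls, by a small margin. The cKO mean was 149 ± 7.47 (SD, n = 3) and the control mean 167 ± 7.35. The log2 fold change of -0.17 ± 0.15 (SE) did not pass the test, with a 95% interval from 0.704-fold to 1.12-fold, and the exact two-sided permutation p was 0.1, the smallest that 3 libraries against 3 allow. Ccne2 and Cdk2, the paralog and the kinase, had log2 fold changes of -0.098 and -0.10 and overlapped between groups. Of the 52 genes, 2 were highest in control replicate b, Ccne1 and E2f2.

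The E2F and pocket protein genes held both the smallest p-value and the most negative log2 fold change of the 52. Rb1 (ENSMUSG00000022105, chr14:73183673-73325822), the retinoblastoma protein that holds E2F factors back, had 3587, 3301 and 3402 normalized counts in the cKO and 3389, 3100 and 3279 in the controls. Its log2 fold change was 0.076 ± 0.056 (SE), with a 95% interval from 0.968-fold to 1.15-fold, and the groups overlapped. E2f2 (ENSMUSG00000018983, chr4:136172394-136196057), an activating E2F, had 74.0, 99.3 and 81.2 in the cKO and 96.4, 114 and 95.05 in the controls. Only cKO replicate b reached the level of the controls, and the log2 fold change was -0.28 ± 0.21 (SE), with a 95% interval from 0.599-fold to 1.14-fold. E2f1, its close relative, ranged from 111 in cKO replicate a to 229 in control replicate a, a 2.07-fold range that was wider than that of the other 7 genes of the E2F, pocket protein and inhibitor group.

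The 3 Cdk inhibitors had log2 fold changes near 0. Cdkn1c (ENSMUSG00000037664, chr7:143458339-143461050), also called p57, which acts as cells leave the cycle, had 4386, 5481 and 5006 normalized counts in the cKO and 5114, 4806 and 5075 in the controls. The controls lay inside the range of the cKO libraries, and the log2 fold change was -0.021 ± 0.071 (SE). Cdkn1a (p21) and Cdkn1b (p27) had log2 fold changes of -0.0062 and 0.0085.

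**Figure D2:**
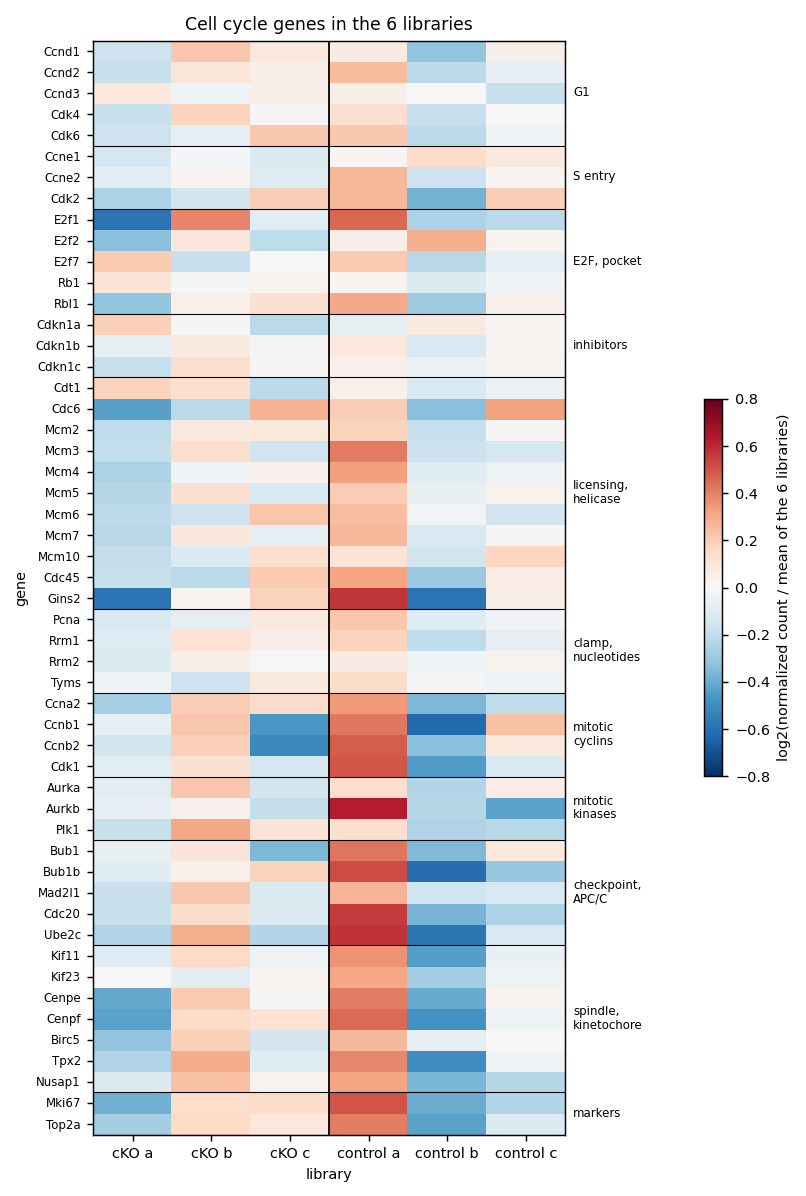
Level of each of the 52 cell cycle genes (rows, grouped by role) in each of the 6 libraries (columns), as log2 of its normalized count over its mean in the 6 libraries, with red above and blue below that mean. The column of control replicate a is red for most mitosis and replication genes, and the columns of cKO replicate a and control replicate b are mostly blue, while no block of colour follows the line between the groups.

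The fitted log2 fold change was negative for 13 of 15 replication genes, with a median of -0.10, and 0 of 15 passed the test. Cdc6 (ENSMUSG00000017499, chr11:98907801-98923940), which loads the helicase at origins, had the largest difference, with 58.1, 67.6 and 95.2 normalized counts in the cKO and 90.2, 62.4 and 98.3 in the controls. The order of the libraries mixes the groups, and the log2 fold change was -0.20 ± 0.27 (SE), with a 95% interval from 0.581-fold to 1.31-fold. Mcm7 (ENSMUSG00000029730, chr5:138164583-138172422), a subunit of that helicase with the highest level per kb among the licensing genes, had 1545, 1918 and 1712 in the cKO and 2159, 1653 and 1813 in the controls. Control replicate a was highest and cKO replicate a lowest, and the log2 fold change was -0.13 ± 0.10 (SE), with a 95% interval from 0.785-fold to 1.07-fold. The other members of the Mcm2 to Mcm7 ring, of which Mcm2, Mcm3, Mcm4, Mcm5 and Mcm6 were measured, had log2 fold changes from -0.16 (Mcm4) to -0.025 (Mcm2). In all 6 of these subunits control replicate a was the highest library and cKO replicate a the lowest. Pcna (ENSMUSG00000027342, chr2:132249162-132253314), the sliding clamp of the polymerase, had 745, 771 and 858 in the cKO and 942, 758 and 795 in the controls, with a log2 fold change of -0.077 ± 0.10 (SE). The 3 genes of nucleotide supply, Rrm1, Rrm2 and Tyms, lay between -0.074 and 0.041.

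The 15 replication genes thus shared an order of libraries more than a difference between groups. Control replicate a was the highest library for 12 of them and cKO replicate a the lowest for 11, compared to 18.7% of all genes tested in which control replicate a was highest and 3180 of 16697 in which cKO replicate a was lowest. With each gene set to 100% at its mean over the 6 libraries, the median replication gene stood at 87.6%, 102% and 106% in the cKO and at 115%, 91.8% and 101% in the controls. The means of these library values were 98.3% ± 9.46 (SD, n = 3) and 102% ± 11.7. The spread within either group exceeded the distance between the groups.

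Mitosis genes had a wider spread, and their group difference was closer to 0. Their median log2 fold change was -0.028, 13 of 21 genes had a negative one, and 0 of 21 passed the test. Among the mitotic cyclins, Ccnb2 (ENSMUSG00000032218, chr9:70407692-70421547) had 177, 224 and 137 normalized counts in the cKO and 275, 156 and 208 in the controls, with a log2 fold change of -0.24 ± 0.23 (SE) and a 95% interval from 0.594-fold to 1.2-fold. Ccna2 (ENSMUSG00000027715, chr3:36564865-36572150), which acts from S phase to early mitosis, had 483, 668 and 648 in the cKO and 737, 453 and 507 in the controls. For Ccna2, the 3 controls hold both the highest and the lowest library, and the log2 fold change was 0.076 ± 0.18 (SE). Ccnb1 and the kinase Cdk1, whose promoter is printed above, had log2 fold changes of -0.12 and -0.022.

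Plk1 (ENSMUSG00000030867, chr7:122159439-122169873), the kinase that brings on spindle assembly, had 224, 313 and 272 normalized counts in the cKO and 278, 214 and 217 in the controls. It had the most positive log2 fold change of the 52 genes, 0.17 ± 0.16 (SE), with a 95% interval from 0.874-fold to 1.44-fold, and it was highest in cKO replicate b. Aurka and Aurkb, the kinases of the spindle poles and of the chromosomal passenger complex, had log2 fold changes of 0.0052 and -0.095.

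All 5 genes of the spindle checkpoint and of the anaphase-promoting complex were highest in control replicate a, and 0 of 5 passed the test. Bub1 (ENSMUSG00000027379, chr2:127801122-127831865), a checkpoint kinase at unattached kinetochores, had 245, 273 and 198 normalized counts in the cKO and 342, 199 and 270 in the controls. Cdc20 (ENSMUSG00000006398, chr4:118432901-118437352), the activator of the complex at anaphase, had 221, 277 and 231 in the cKO and 369, 193 and 210 in the controls. For both, the controls spread more widely than the cKO libraries, and their log2 fold changes were -0.16 ± 0.20 and -0.054 ± 0.22 (SE). Ube2c, the ubiquitin-conjugating enzyme of the complex, spanned from 131 in control replicate b to 292 in control replicate a, a 2.23-fold range within the control group.

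Spindle and kinetochore genes were likewise highest in control replicate a. Tpx2 (ENSMUSG00000027469, chr2:152847964-152895321), which activates Aurora A on spindle microtubules, had 491, 713 and 539 normalized counts in the cKO and 757, 411 and 565 in the controls. Birc5 (ENSMUSG00000017716, chr11:117849251-117855743), also called survivin, had 121, 172 and 136 in the cKO and 180, 143 and 151 in the controls. This held for all 7 genes of the list, including Kif11, Kif23, Cenpe, Cenpf and Nusap1, and their log2 fold changes lay between -0.17 (Birc5) and 0.12 (Nusap1).

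The proliferation markers were almost equal in the group means and far apart in single libraries. Mki67 (ENSMUSG00000031004, chr7:135689784-135716361), which coats mitotic chromosomes and marks cycling cells, had 1041, 1497 and 1504 normalized counts in the cKO and 1932, 1033 and 1159 in the controls. Top2a (ENSMUSG00000020914, chr11:98992943-99024189), the topoisomerase that untangles sister chromatids, had 1318, 1788 and 1694 in the cKO and 2124, 1189 and 1486 in the controls. The mean of Top2a was 1600 ± 248 (SD, n = 3) for cKO libraries and 1600 ± 478 for control libraries. The log2 fold changes were -0.021 ± 0.21 for Mki67 and 0.012 ± 0.18 for Top2a (SE), with 95% intervals from 0.721-fold to 1.35-fold and from 0.772-fold to 1.32-fold.

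**Figure D3:**
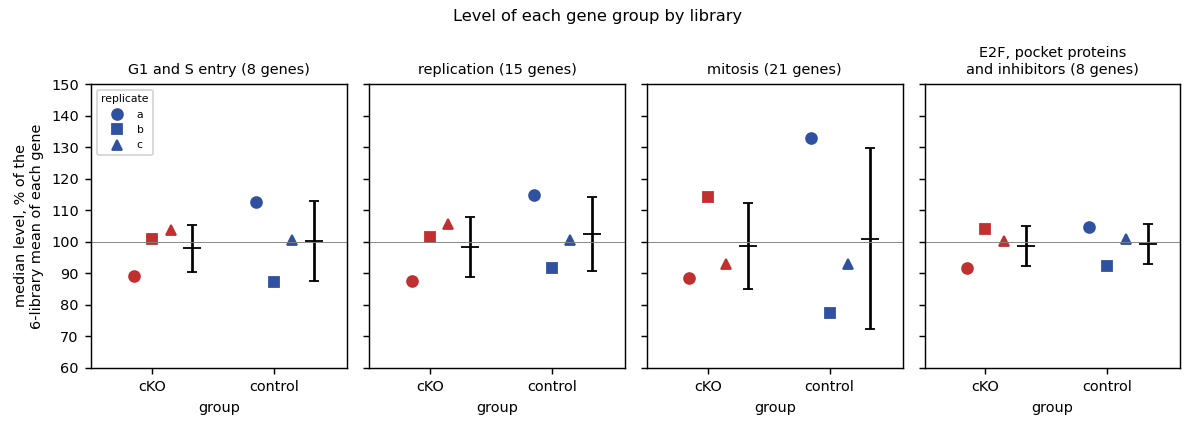
Median level of the genes of each group in each library, in percent of each gene's mean over the 6 libraries, with a point per library (red for cKO, blue for control, shapes for replicates a, b and c) and bars for the mean ± SD of the 3 libraries. For the 21 mitosis genes the control libraries span from 77.2% to 133%, and the 3 cKO libraries lie between these limits.

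With the same scale as above, the median mitosis gene stood at 88.5%, 114% and 93.0% in the cKO and at 133%, 77.2% and 92.9% in the controls, or 98.6% ± 13.7 (SD, n = 3) and 101% ± 28.7. Control replicate a was the highest library for 19 of 21 mitosis genes, and cKO replicate b for the other 2, Aurka and Plk1. Control replicate b was the lowest for 15 of 21. The coefficient of variation within the controls had a median of 28.1% over the mitosis genes and within the cKO 15.8%, compared to 8.09% and 8.57% over all genes tested. The libraries in which most mitosis genes were highest and lowest thus share a genotype.

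The ratio of the highest to the lowest of the 6 libraries shows this gene by gene. Its median was 1.79 for the mitosis genes, from 1.37 for Mad2l1 to 2.23 for Ube2c. For the replication genes it was 1.34, with Gins2 highest at 2.24, for G1 and S entry genes 1.35, and for the E2F, pocket protein and inhibitor genes 1.34. Over the 12315 genes with a mean within the range of the 52 genes, the median ratio was 1.21.

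**Figure D4:**
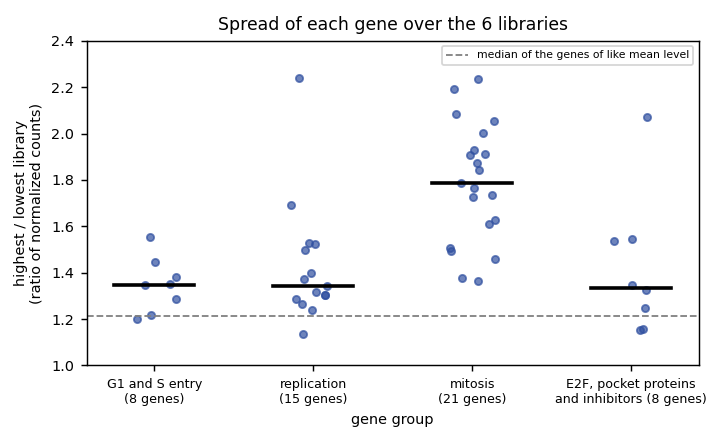
Ratio of the highest to the lowest of the 6 libraries for each of the 52 genes (points), by group, with a bar at the median of the group and a dashed line at the median of the genes with a mean in the same range, 1.21. The mitosis genes have a median of 1.79, and the other 3 groups have medians of 1.34 to 1.35.

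Because single libraries stood apart, the direction of the mitosis and replication genes was read again with each library left out. Without control replicate a, the median log2 fold change of the mitosis genes was 0.25 and 2 of 21 genes had a negative one, and without control replicate b it was -0.21 and 20 of 21 did. It was 0.051 without cKO replicate a, -0.14 without cKO replicate b, 0.0011 without cKO replicate c and -0.066 without control replicate c. For the replication genes, the median was 0.024 without control replicate a (7 of 15 negative) and -0.20 without control replicate b (14 of 15 negative). It stayed below 0 in the other fits, at -0.031 without cKO replicate a, -0.081 without cKO replicate b, -0.13 without cKO replicate c and -0.10 without control replicate c. For the G1 and S entry genes, it was -0.011 with all libraries, 0.10 without control replicate a, 0.059 without cKO replicate a and -0.12 without control replicate b. It was -0.066 without cKO replicate b, -0.058 without cKO replicate c and -0.026 without control replicate c. The sign of the median thus turned for the replication genes without control replicate a, for the G1 and S entry genes without control replicate a or cKO replicate a, and for the mitosis genes without control replicate a, cKO replicate a or cKO replicate c. For the E2F, pocket protein and inhibitor genes, it turned from -0.014 to 0.062 without control replicate a and to 0.045 without cKO replicate a. Bub1b, the partner of Bub1 in the checkpoint, was the only one of the 52 genes with an unadjusted p-value under 0.05 in any of these fits, with a log2 fold change of 0.50 ± 0.15 (SE) without control replicate a (limma, unadjusted p-value of 0.00605 and adjusted p = 0.994). The same fit put 635 of 16680 genes under that threshold. With all libraries, Bub1b had 381, 419 and 462 normalized counts in the cKO and 586, 267 and 330 in the controls.

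**Figure D5:**
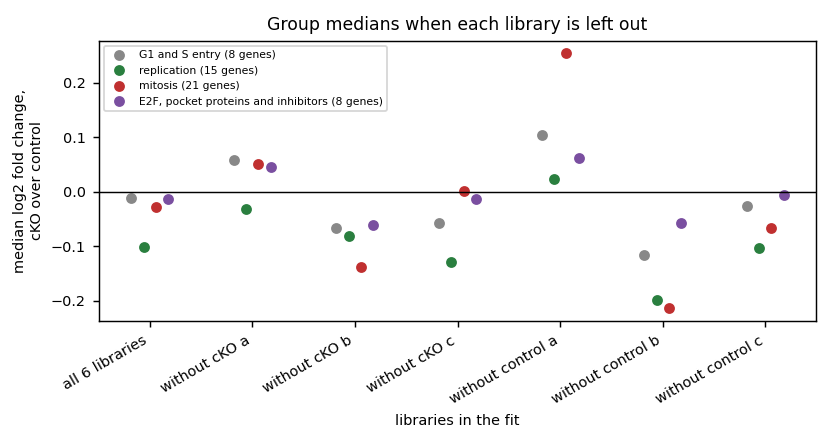
Median log2 fold change, cKO over control, of each group of cell cycle genes (colours) on the vertical axis, with all 6 libraries and with each library left out in turn along the horizontal axis. The mitosis genes move from 0.25 without control replicate a to -0.21 without control replicate b.

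Other genes of the same pathways were also often highest in control replicate a. Of 43 other replication genes, such as origin recognition, polymerase and clamp loader subunits, 0 had a p-value under 0.05, 25 had a negative log2 fold change, and the median was -0.023. Control replicate a was the highest library for 24 of these 43, and the lowest was control replicate b for 15 and cKO replicate a for 12. Groups did not overlap for 2 of these 43, Prim1 and Pold2, both lower in the cKO, compared to 7.65% of all genes tested. Of 50 other mitosis genes, 49 were tested, 0 had a p-value under 0.05, 32 had a negative log2 fold change, and the median was -0.050. Control replicate a was the highest library for 36 of these 49, the lowest was cKO replicate a for 20 and control replicate b for 18, and the median gene stood at 125% there and at 84.9% in control replicate b. Foxm1, a transcription factor of late cell cycle genes, came closest to the threshold and is named after its values were seen, with 295, 298 and 292 normalized counts in the cKO and 465, 322 and 332 in the controls. Its 3 cKO libraries lay within a few counts of each other and below all 3 controls, and its log2 fold change was -0.33 ± 0.15 (SE, limma, unadjusted p-value of 0.0537). Control replicate a was again the highest library. Foxm1 was the only 1 of the 49 whose groups did not overlap, compared to 7.65% of all genes tested. Of 23 other G1 regulators, 21 were tested, 0 passed, the median was -0.011, and cKO replicate b was the highest library for 9 and control replicate a for 7. Cdkn2a and Cdkn2b were below the minimum level.

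Markers of progenitors and neurons moved with the cell cycle genes only in part. Counts were recovered for 8 of 10 listed progenitor markers, without Vim and Fabp7, and for 5 of 12 listed markers of young neurons. The sum of the 8 recovered progenitor markers was 18841 in cKO replicate a, the lowest library, 22263 and 22216 in the other cKO libraries, 23449 in control replicate a, the highest, and 21563 and 22268 in the other controls. Of these 8 markers, 6 were lowest in cKO replicate a, 3 were highest in control replicate a, and none was at 0 in any library. Between the groups, 6 of the 8 had a negative log2 fold change, with a median of -0.20, and limma gave 2 of them an unadjusted p-value under 0.05, Slc1a3 (-0.21) and Hes5 (-0.33), compared to 2.80% of all genes. Slc1a3, a glutamate transporter of radial glia, had 3972, 4093 and 4615 normalized counts in the cKO and 5171, 4404 and 5103 in the controls, and Hes5, a Notch target, had 566, 826 and 587 and 836, 727 and 886. The groups overlap for both. The 5 recovered markers of young neurons summed to 33334 in cKO replicate a, the highest library, to 28362 and 27167 in the other cKO libraries, and to 29512, 30962 and 29874 in the controls. The sums in control replicate b, where the mitosis genes were lowest, lay inside the range of the other libraries for both lists. The sums of endothelial markers (9854 to 10639) and of microglial markers (875 to 978) were near equal in all 6 libraries. By gene, the median ratio of the highest to the lowest library was 1.21 for endothelial and 1.63 for microglial markers, compared to 1.27 over all genes tested. The 9 erythroid markers summed to 8838, 12813 and 12577 in the cKO and to 9254, 8303 and 11807 in the controls. Of these 9, 8 had a positive log2 fold change, the median was 0.30, and 1, Hba-a1, passed an unadjusted 0.05 in limma. The part of any of these cells, of the mesenchyme markers in cKO replicates a and c, or of the Y-linked markers in control replicate a in the levels of the cell cycle genes was not tested.

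The counts of 20 of the 52 genes could include reads of another gene, since their exons overlap one, on the opposite strand for 19. These include Cdk4 with Tspan31, Ccna2 with Exosc9, Cdc20 with Elovl1, Mcm7 with Cops6 and Ap4m1, and Rb1 with Rcbtb2 and Lpar6. Whether the authors' counting used the strand is not given in the sources used here.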

How the data were processed

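Midbrain RNA of 6 libraries was sequenced, 3 per genotype, and the authors deposited a single table of the whole series. Its coverage columns are signal values, namely mean read counts per gene over all libraries and over each group, each library divided by its size factor by the authors. The submitters' processing notes name TopHat 1.0.14, Bowtie2 2.1.0, HTSeq 0.6.1p1, DESeq 1.10.1 and build GRCm38.p4, while the paper names DESeq2. Use of the strand in counting is not given in the sources used here. Columns with the authors' ratios and p-values were not used. The 3 lines that name no gene hold 31.8% of the mean counts and were left out.

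Whole reads per library were recovered by searching, for each printed group mean of up to 10000, the 3 counts that give it once each is divided by its library's size factor. The size factors were read from the smallest means, which are single reads of a library. Exactly 1 set of counts fitted both group means for 26372 genes (98.2%), 480 genes were above the searched mean, and 0 of 1000 decoy values had an answer. These genes hold 70.0% of the counts on genes. Replicates a, b and c are in order of falling size factor and carry no sample number. The authors' column names number the libraries alike in both groups, but the recovered replicates cannot be matched to these numbers. Whether equal numbers mark pairs is not given in the sources used here. The depth, 20782935 to 25240920 recovered reads per library, sets the precision of low genes, and p-values measure the spread between these pooled libraries.

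Counts of 16697 genes with a mean of at least 10 were fitted with limma 3.58.1 (voom weights, R 4.3.3), with genotype as the only term, the recovered size factors and Benjamini-Hochberg adjustment over all genes tested. The fit and the recovery were tested on simulated data. For the fit, every simulated gene was given the same dispersion. That test does not cover genes that spread more widely between libraries, such as the mitosis genes. Single values were also compared by an exact two-sided permutation test, which cannot go below 0.1. The design foresaw counts recovered in this way. Alternatives were minimum means of 50 and of 1 read, limma-trend with pseudocounts of 1 and 10, recomputed size factors, centring on the median gene, the deposited group means, and each library left out. Values per library are given for genes that passed or did not overlap, and in each role list for the gene with the highest level per kb and the gene with the largest log2 fold change. E2f1, Ube2c and Bub1b were added after their values were seen. The genes, lists and tests were chosen with earlier results of these data known. Exon lengths and positions are from GENCODE M21 (GRCm38), promoter windows from RefSeq. Other steps ran in Python 3.11.15 (numpy 2.4.6, numba 0.67.0, pandas 2.3.3) and plots were drawn with matplotlib 3.10.9.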

Additional observations from a re-analysis of the deposited data

How the results depend on the processing

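The counts of genes that passed were computed under each alternative. The number of genes with an unadjusted p-value under 0.05 was 970 with no minimum beyond 1 read, where more low genes were tested, and lay between 342 and 477 under the other settings that kept all 6 libraries. With 1 library left out it ranged from 333 to 635. Genes with an adjusted p-value under 0.05 numbered 0 to 4 with 1 library left out. The 4, all without control replicate a, were Kdm5d, Uty, Ddx3y and Gm11702, named after their values were seen. Kdm5d, Uty and Ddx3y belong to the Y-linked markers. The sum of these markers was 2476 in control replicate a, the lowest library, and 7631 and 8585 in the other controls. Of the 52 cell cycle genes, 0 to 1 had an unadjusted p-value under 0.05, the one being Bub1b without control replicate a, and none had one under any setting with all 6 libraries.

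The median log2 fold change of the mitosis genes ranged from -0.21 to 0.25 with 1 library left out, that of the replication genes from -0.20 to 0.024 and that of the G1 and S entry genes from -0.12 to 0.10. Control replicates a and b set these limits. Of the named genes, Mki67 turned to 0.0066 and 0.0064 under limma-trend with pseudocounts of 1 and 10, from a value near 0. With 1 library left out, the sign turned for Bub1 (-0.37 to 0.044), Ccna2 (-0.075 to 0.30), Ccnd1 (-0.019 to 0.22), Cdc20 (-0.24 to 0.26), Cdk4 (-0.069 to 0.11), Cdkn1c (-0.096 to 0.068), Mki67 (-0.21 to 0.27), Pcna (-0.14 to 0.024), Top2a (-0.19 to 0.25) and Tpx2 (-0.21 to 0.26). The sign held, while the size moved, for Birc5 (-0.31 to -0.044), Ccnb2 (-0.46 to -0.019), Ccne1 (-0.21 to -0.14) and Cdc6 (-0.39 to -0.030). The same was seen for E2f2 (-0.39 to -0.18), Mcm7 (-0.22 to -0.013), Plk1 (0.053 to 0.30) and Rb1 (0.041 to 0.11). The cause was not tested. No paired analysis was possible because the recovered libraries carry no sample numbers. With 3 libraries per group, an exact test cannot pass 0.05, and for the mitosis genes the spread between control libraries limits what could be seen.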
